A study of Caenorhabditis elegans with 2 samples.

Results

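The genes studied here encode the retinoblastoma protein of Caenorhabditis elegans and its partners in the DREAM complex: lin-35, efl-1, dpl-1, lin-9, lin-37, lin-52, lin-53 and lin-54. They were chosen by name, and all 8 were found in the Ensembl WBcel235 annotation among 19973 nuclear protein-coding genes. The question was which of them carry chromatin peaks of GEI-8, a corepressor related to NCoR and SMRT of vertebrates. Each gene was searched from 3 kb upstream of its annotated 5′ end to its 3′ end.

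Peaks came from chromatin immunoprecipitation with sequencing of L4 larvae, the last larval stage, of strain OP589. The strain is unc-119(tm4063) and carries the integrated transgene wgIs589, which holds gei-8 fused to TY1, EGFP and 3xFLAG tags and a wild-type unc-119 copy. The tagged protein was precipitated through its GFP. There was 1 group of 2 biological replicates, each of whole animals of mixed sex collected 48 hours after synchronisation by starvation at the first larval stage. The transgene is an added source of GEI-8, and no tissue can be told from another in whole animals. No untagged strain or mutant was analysed here, so the values describe where peaks were called and allow no test between conditions. Only called peaks were analysed, and the depth of each library is unknown.

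DREAM joins a retinoblastoma-like pocket protein, an E2F and DP pair and a core of MuvB proteins at the promoters of cell cycle genes, where it represses transcription in cells that have left the cycle. In the worm many of these genes were found as synMuv B genes, whose loss gives extra vulvae together with a second mutation, and their products also hold germline genes silent in somatic cells. Corepressors of the NCoR family do not bind DNA themselves and are brought to it by other proteins, nuclear receptors among them.

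The promoters of lin-35, lin-53 and lin-54 held a reproducible GEI-8 peak, and those of the other 5 genes did not. A reproducible peak is one on the deposited list of 1053 peaks that passed the irreproducible discovery rate threshold, and a promoter here runs from 1000 bp upstream to 200 bp downstream of the 5′ end. The count of 3 of 8 is 37.5% (exact Clopper-Pearson 95% interval 8.52 to 75.5%), beside 411 of 19973 protein-coding genes, or 2.06%. Over the whole search region the same 3 genes had a reproducible peak, beside 5.62% of all genes. The genes were selected with earlier results of these data known, so the difference is given without a test.

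These peaks ranked in the weaker part of the reproducible list and ranked better in replicate 2. Their pooled signals of 137 to 144 stand beside a median of 162 and a minimum of 125 over that list, and the stronger 50% of it had a summit at 0 of 8 promoters, beside 1.07% of all genes. Ranks run from 1, the strongest, by the authors' signal value per peak, and signals of different lists can be compared only by rank. Among the 1053 strongest peaks of replicate 2, a promoter summit was found at these 3 genes, beside 2.17% of all genes. Among the 1053 strongest of replicate 1 it was found at 0 of 8, beside 1.85% of all genes, so the count rests on replicate 2. Both replicates together also gave 0 of 8, beside 1.32% of all genes. When the 2106 strongest peaks per replicate were used, a summit lay in the promoters of lin-35, lin-53 and lin-54 in both, beside 2.17% of all genes. Of all 1053 reproducible peaks, 176 (16.7%) were among the strongest in replicate 2 alone and 190 (18.0%) in replicate 1 alone. Of the 1044 reproducible peaks matched in replicate 1 and replicate 2, the better rank was in replicate 2 at 504.

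**Figure D1:**
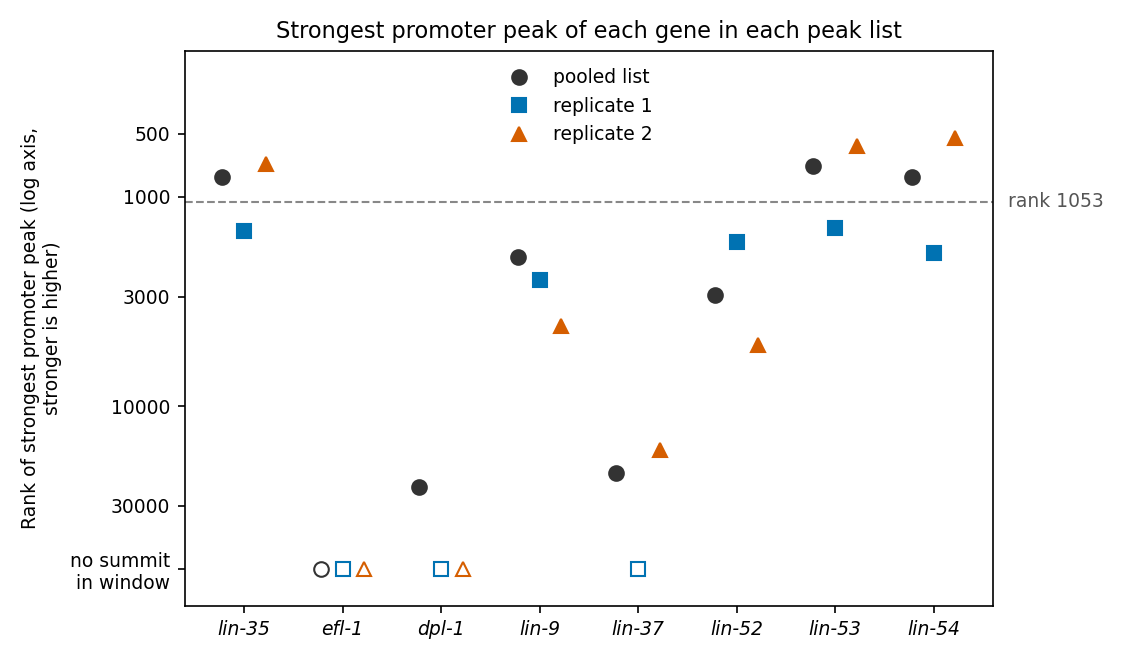
Rank of the strongest peak in the promoter window of each gene (log axis, stronger peaks higher) in the pooled list (circles), replicate 1 (squares) and replicate 2 (triangles), with open symbols where no summit fell in the window. The dashed line marks rank 1053: lin-35, lin-53 and lin-54 lie above it in the pooled list and replicate 2 and below it in replicate 1.

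The gene lin-35 (WBGene00003020) encodes the only pocket protein of the worm, the counterpart of vertebrate RB, p107 and p130. It lies on the plus strand of chromosome I from 5807709 to 5815637 (all positions are in build ce11, which is WBcel235). Its reproducible peak spanned 5807267 to 5807716, with the summit 217 bp upstream of the 5′ end in intergenic DNA and a signal of 138 in the pooled list. The peak was ranked 805 in the pooled list, 1451 in replicate 1 and 694 in replicate 2, and the replicate summits lay 84 bp apart. The summit was also 201 bp upstream of vps-51, a vesicle tethering gene on the opposite strand, and the 5′ ends of the genes are separated by 417 bp. Inside lin-35 the annotation has C32F10.4 on the opposite strand, and hmg-3 overlaps its 3′ end. The other 3 pooled peaks of the search region were weak. They lay in a coding exon of vps-51 (rank 15944) and inside lin-35 at 4439 bp and 6228 bp from its 5′ end (ranks 27066 and 21186).

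The E2F and DP genes had no peak of this kind. E2F and DP proteins bind DNA as a dimer and tether the pocket protein to it. The gene efl-1 (WBGene00001161, V, 16958590 to 16965675, minus strand) encodes an E2F protein of the worm. It had 0 pooled peaks and 0 replicate 2 peaks in a search region of 10086 bp. Replicate 1 alone had a pair, ranked 4531 in an intron 371 bp inside the gene and 13496 in an intron of the neighbour fbxa-90. The nearest reproducible summit was 150543 bp away from the 5′ end, the farthest among the 8 genes.

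The gene dpl-1 (WBGene00001061, II, 9169910 to 9172565, plus strand) encodes the DP partner of EFL-1 and lies wholly inside T23G7.2, a gene on the opposite strand. Its promoter summit, 163 bp inside the gene in a coding exon, was ranked 24428 in the pooled list. In replicate 1 no summit lay in the promoter window, and in replicate 2 the overlapping summit was at 225 bp, just past the window, with rank 18474. The strongest pooled peak of the region was 1841 bp inside dpl-1 in another coding exon, ranked 6291 in the pooled list, 4172 in replicate 1 and 14554 in replicate 2. Its q-value in the pooled list was 0.376.

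The genes of the MuvB core ranged from reproducible peaks at lin-53 and lin-54 to a weak one at lin-37, with pooled rank 20938. The gene lin-54 (WBGene00003037, IV, 13241044 to 13243401, plus strand) encodes the subunit that binds DNA at the CHR element, a short promoter element of cell cycle genes. Its reproducible peak (13240471 to 13240920, signal 137) was ranked 807 in the pooled list, 1853 in replicate 1 and 523 in replicate 2, with the replicate summits 37 bp apart. The summit lay in intergenic DNA 348 bp upstream of lin-54 and 45 bp upstream of rpl-12, a large ribosomal subunit gene on the opposite strand. Of the 392 bp between the 5′ ends, the summit was therefore near the rpl-12 end. The nearest tRNA or snoRNA gene was JC8.15, a snoRNA gene 1619 bp away. On the other side, JC8.4 starts 273 bp behind lin-54 on the same strand.

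The gene lin-53 (WBGene00003036, I, 9618196 to 9619760, minus strand) encodes an RbAp46/48 histone-binding protein, which is also a subunit of other chromatin complexes. Its reproducible peak (9619756 to 9620205, signal 144) was the strongest among the 8 genes, ranked 709 in the pooled list, 1409 in replicate 1 and 568 in replicate 2. The summit lay 221 bp upstream of lin-53 and 246 bp upstream of nra-2, a nicalin-like gene on the opposite strand, in the 466 bp between their 5′ ends. The replicate summits were 73 bp apart. A second pooled peak, 380 bp inside lin-53 in a coding exon, was ranked 4998, with matches at 3674 in replicate 1 and 19027 in replicate 2. The related gene rba-1 starts 88 bp behind lin-53 on the same strand, which is the spacing of a possible operon. The promoter window of rba-1 held a weak pooled peak of rank 15747. Its best rank was 16539 in replicate 1, and replicate 2 had no summit there.

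The gene lin-9 (WBGene00002998, III, 8900237 to 8904131, minus strand) encodes another subunit of the core and came next in strength. Its promoter peak (8904053 to 8904502, signal 100) was ranked 1944 in the pooled list, 2494 in replicate 1 and 4139 in replicate 2, with a pooled q-value of 0.0383. The summit was in intergenic DNA 147 bp upstream, and the replicate summits lay 46 bp apart. Both replicates thus had a summit at about the same site, but with q-values of 0.0816 in replicate 1 and 0.242 in replicate 2. The peak was not on the reproducible list. A further summit 726 bp upstream (rank 27415) lay 758 bp upstream of unc-32, a proton pump subunit gene on the other side.

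The gene lin-52 (WBGene00003035, III, 9824083 to 9824750, minus strand) encodes the small subunit that connects the pocket protein to the core. Its strongest promoter peak (9824399 to 9824848, signal 87.6) had its summit in an intron 126 bp inside the gene and was ranked 2955 in the pooled list. The replicates disagreed here, with rank 1641 in replicate 1 and rank 23854 in replicate 2, although the summits were only 5 bp apart. In replicate 2 the strongest promoter summit was a different one, 754 bp upstream and ranked 5108. That site lay 72 bp upstream of ZK632.9, the gene whose 3′ end is 126 bp before lin-52 on the same strand.

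The gene lin-37 (WBGene00003022, III, 7070890 to 7072552, minus strand) encodes a further core subunit. It starts 60 bp behind ZK418.5 on the same strand. Its promoter window held a pooled summit of rank 20938, in an intron of ZK418.5 at 897 bp upstream. Replicate 2 had the same summit at rank 16295, and replicate 1 had none in the window. The run of same-strand genes less than 1000 bp apart that leads to lin-37 begins at ZK418.7, 8237 bp away, and the one that leads to lin-52 begins at ZK632.10, 2972 bp away. No summit of the pooled list or of either replicate fell in the promoter window of ZK418.7 or of ZK632.10. Past that window, in the 5′ UTR of ZK632.10 and 2549 bp upstream of lin-52, was the second strongest pooled peak of the lin-52 region. It was ranked 5810 in the pooled list, and overlapping peaks were ranked 8835 in replicate 1 and 7118 in replicate 2.

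**Figure D2:**
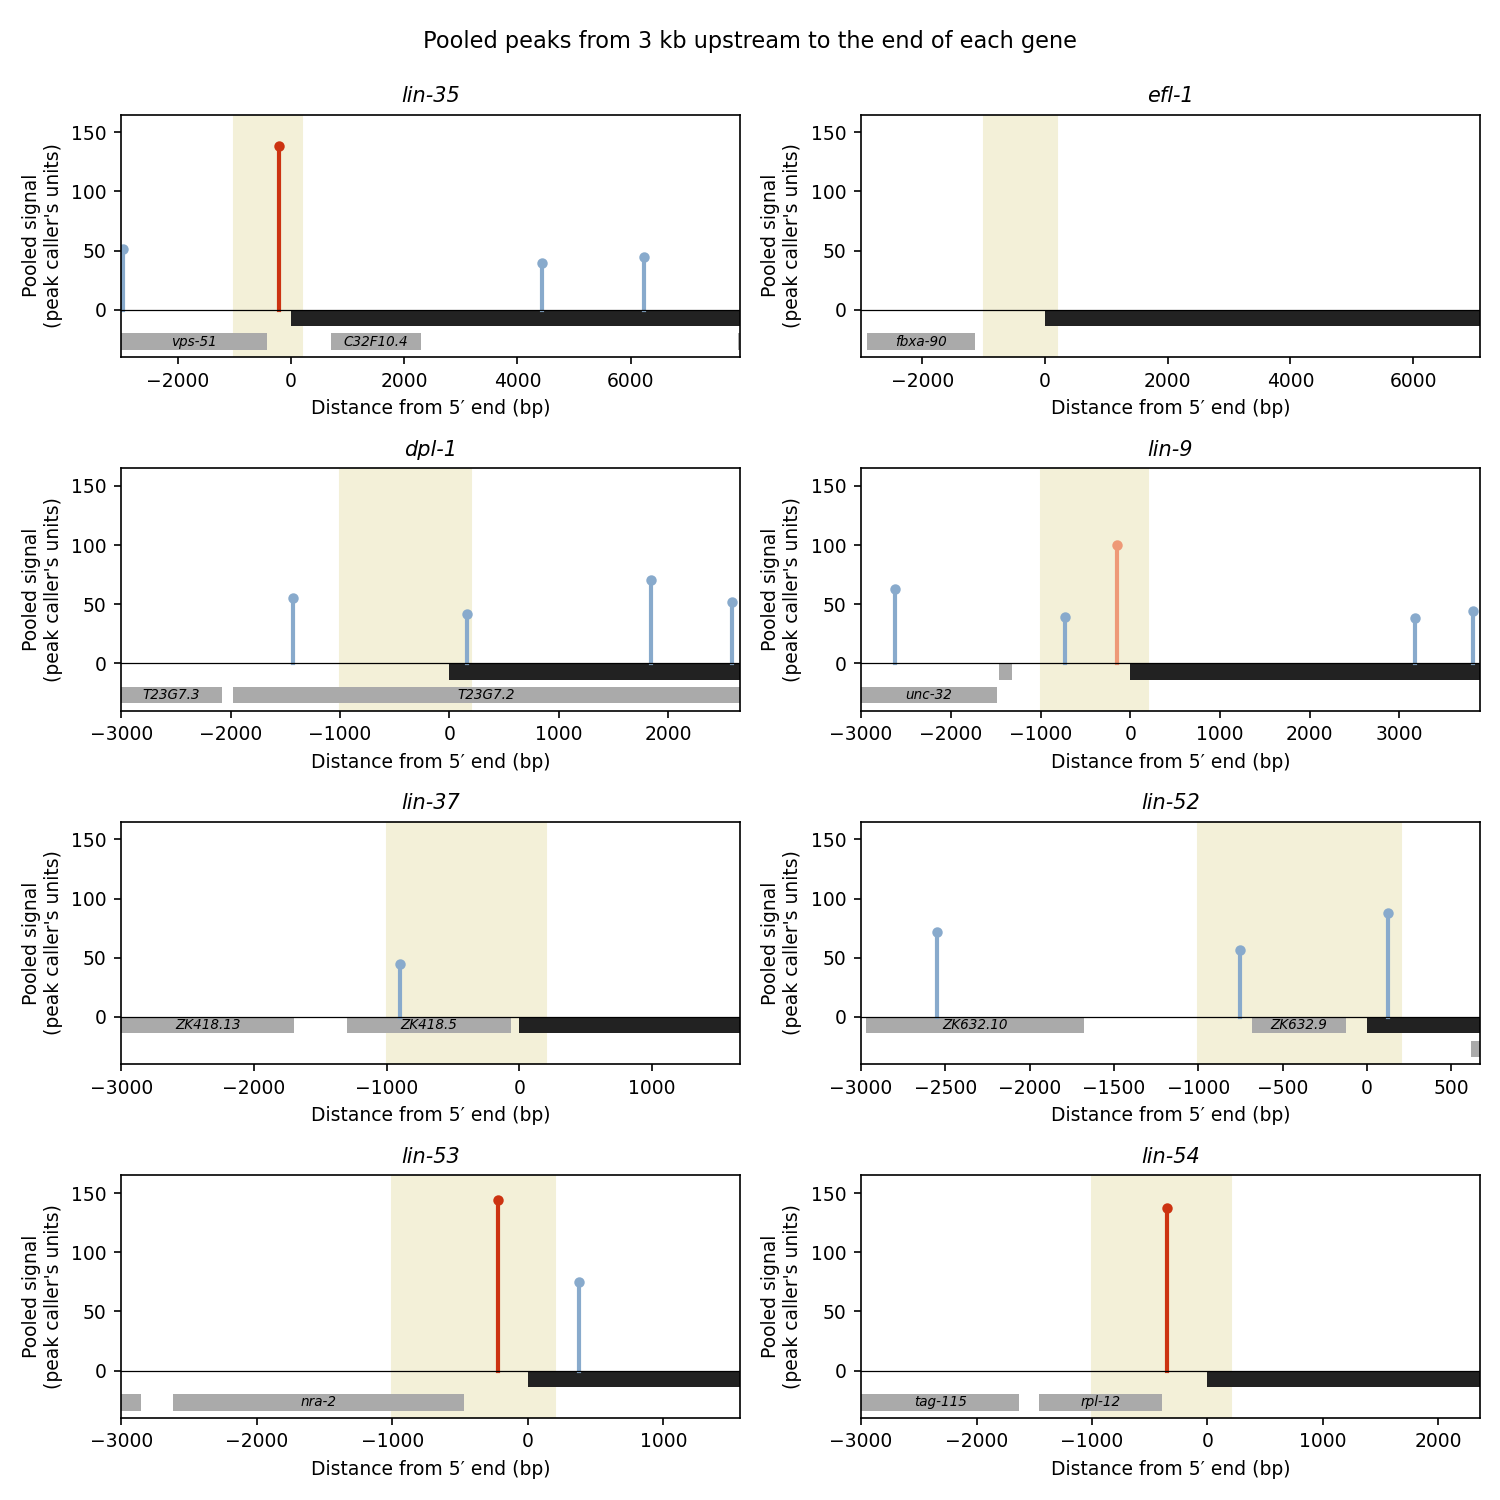
Pooled peaks of the 8 genes by distance of the summit from the 5′ end (bp) and signal in the units of the authors' peak caller. Red marks peaks on the reproducible list, orange the lin-9 peak ranked within 2106 and blue weaker peaks, the shaded band is the promoter window, and bars below the axis are the gene (black) and its neighbours (grey, lower row on the opposite strand). The tallest peaks of lin-35, lin-53 and lin-54, with signals of 138, 144 and 137, lie between a pair of divergent genes.

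The 3 genes with reproducible peaks were also those with a divergent partner, that is, a gene on the opposite strand whose 5′ end lies within 1000 bp upstream. Each summit lay between the 5′ ends and falls in the promoter windows of both genes, so it cannot be assigned to the member alone. When each peak was given to the gene with the 5′ end nearest the pooled summit, lin-53 kept its peak. Those of lin-35 and lin-54 went to vps-51 and rpl-12, which leaves 1 of 8. Under the same assignment 1.68% of all genes had a reproducible promoter peak. For lin-35 (217 bp against 201 bp) and lin-53 (221 bp against 246 bp) the choice was close and changed with the replicate. In replicate 2 the summit 139 bp upstream of lin-35 was nearer to lin-35 than to vps-51. In replicate 1 the summit 294 bp upstream of lin-53 was nearer to nra-2. Over the genome, 105 of 3539 genes with such a partner (2.97%) and 306 of 16434 without one (1.86%) had a reproducible promoter summit. The strongest pooled promoter summits of the 7 members that have one were all more than 1000 bp from tRNA and snoRNA genes. Of the 1053 reproducible peaks, at promoters or elsewhere, 283 (26.9%) were closer. The sets are unlike, since the member summits were picked at promoters and those of dpl-1, lin-9, lin-37 and lin-52 are not reproducible.

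Counted with weaker peaks, the pooled relaxed list of 30000 peaks had a summit in the promoters of 7 of 8 genes, all but efl-1, beside 30.8% of all genes. From 3 kb upstream to the gene end it was again 7 of 8, beside 71.2% of all genes. The relaxed list holds background as well as peaks. The strongest promoter summits of lin-52, lin-37 and dpl-1 had pooled q-values of 0.139, 0.747 and 0.785. The pooled list held 20 peaks in these regions, replicate 1 held 17 and replicate 2 held 23, of which 9, 6 and 8 were in promoter windows. The density was a median of 0.402 pooled peaks per kb at the members and 0.250 per kb at all genes. The median pooled rank of the strongest promoter peak was 2450 over the members, with efl-1 set last, while the median gene of the genome had no promoter peak. Replicate 1 gave a median of 2174 and replicate 2 one of 4624 (3398 ± 1732, SD, n = 2).

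By this rank the members spread widely over the genome's genes. A promoter peak at least as strong as that of lin-53 was found at 285 genes, or 1.43%, and the share was 1.63% for lin-35 and 1.64% for lin-54. It was 3.36% for lin-9, 4.75% for lin-52, 23.2% for lin-37 and 26.3% for dpl-1. The ranks of lin-35 and lin-54 differ by less than their spread between replicates, as do those of lin-53 and lin-35. The median distance from the 5′ end to the nearest reproducible summit was 24704 bp for the members and 43367 bp for all genes. For the members without a reproducible promoter peak it ranged from 19583 bp at lin-52 to 150543 bp at efl-1.

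**Figure D3:**
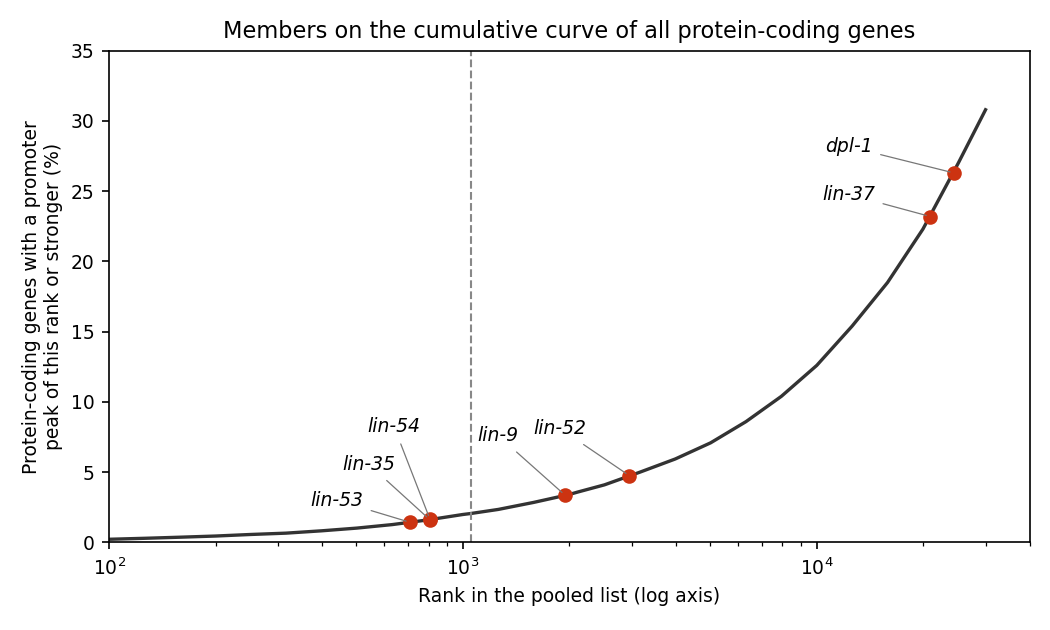
Share of the 19973 nuclear protein-coding genes with a promoter peak at or above each rank of the pooled list (line, log rank axis), with the members marked on it (red points) and rank 1053 dashed. The points lin-53, lin-35 and lin-54 sit below 2% of genes and dpl-1 at 26.3%, and efl-1, without a pooled promoter peak, is not plotted.

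The DNA under the peaks is shown for 4 members, to set the promoter with a reproducible peak beside weaker ones and one with no pooled peak. Capitals mark matches on either strand to the motifs that were searched, which were the E2F-like TTTNNCGC, the CHR-like TTTGAA and TTCGAA, the nuclear receptor core motif AGGTCA and the repeat GAGAGA. Each sequence is written in the direction of the member gene, from the RefSeq genome sequence of WBcel235. For lin-54 it is the intergenic part of the peak, which starts at the base next to rpl-12, with the summit at base 45. For lin-9 and efl-1 it is the 300 bases before the annotated 5′ end, with the lin-9 summit at base 154, and for lin-52 the 100 bases on each side of the summit, at base 101.

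lin-54 (chrIV:13240652-13240920, plus strand): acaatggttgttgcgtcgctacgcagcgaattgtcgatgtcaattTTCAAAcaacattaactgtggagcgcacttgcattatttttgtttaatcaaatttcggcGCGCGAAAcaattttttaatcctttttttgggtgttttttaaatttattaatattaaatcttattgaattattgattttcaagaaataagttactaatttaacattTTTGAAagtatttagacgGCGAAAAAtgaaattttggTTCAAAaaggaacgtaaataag
lin-9 (chrIII:8904132-8904431, minus strand): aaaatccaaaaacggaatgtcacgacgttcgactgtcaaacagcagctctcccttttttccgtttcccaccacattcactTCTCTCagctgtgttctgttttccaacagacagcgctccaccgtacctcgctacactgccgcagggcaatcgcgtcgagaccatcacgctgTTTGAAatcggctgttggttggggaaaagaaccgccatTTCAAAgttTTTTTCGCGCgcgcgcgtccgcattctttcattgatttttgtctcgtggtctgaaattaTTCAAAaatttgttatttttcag
lin-52 (chrIII:9824524-9824724, minus strand): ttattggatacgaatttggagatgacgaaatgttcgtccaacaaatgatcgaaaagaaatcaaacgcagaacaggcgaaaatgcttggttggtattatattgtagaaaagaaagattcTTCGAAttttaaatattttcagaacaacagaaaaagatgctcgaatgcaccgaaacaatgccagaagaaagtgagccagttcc
efl-1 (chrV:16965676-16965975, minus strand): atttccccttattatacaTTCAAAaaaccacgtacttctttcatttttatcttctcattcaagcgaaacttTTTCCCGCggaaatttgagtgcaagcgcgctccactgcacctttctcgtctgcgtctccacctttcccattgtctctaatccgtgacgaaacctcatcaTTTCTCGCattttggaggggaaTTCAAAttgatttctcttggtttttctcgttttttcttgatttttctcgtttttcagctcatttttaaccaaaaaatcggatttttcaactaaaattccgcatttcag

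In the lin-54 peak a CHR-like match (bases 46 to 51) directly follows the pooled summit base, and E2F-like matches start at bases 105 and 229. The replicate summits there lay 37 bp apart, so the summit is not placed to the base. In the lin-9 promoter overlapping E2F-like matches (starts 219 and 221) and CHR-like matches on both sides of them lie between the summit and the gene. The efl-1 promoter, which had no pooled peak, held E2F-like matches at bases 72 and 171 and a pair of CHR-like matches. The lin-52 window held a single CHR-like match.

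Over the 8 genes, TTTNNCGC was found in the promoters of 4 (efl-1, lin-9, lin-53 and lin-54) in a window of 250 bases before to 50 bases after the 5′ end, beside 18.8% of all promoters. Its form TTTCCCGC was in 2, efl-1 and lin-53, beside 1.57%, and its form TTTGGCGC was in 0, beside 0.941%. The CHR-like TTTGAA was in 6 of 8 beside 62.5%, and TTCGAA in 1, lin-37, beside 18.2%. The receptor motif AGGTCA was in 0 of 8 beside 8.27%, and GAGAGA in 3 (dpl-1, lin-9 and lin-37) beside 21.8%. Within 100 bp of the pooled summit, TTTNNCGC was at 3 of the 7 members with a promoter peak (lin-9, lin-53 and lin-54) and at 14.8% of reproducible peaks. In the same window TTTGAA was at 5 of 7 and 27.9%, and GAGAGA at 2 of 7 (lin-35 and lin-9) and 36.6%. The sets are unlike, so the shares are not read as enrichment. The member summits were picked at promoters, and those of dpl-1, lin-9, lin-37 and lin-52 are not reproducible. The dpl-1 and lin-37 summits, both with TTTGAA, had pooled q-values of 0.785 and 0.747. For lin-35, the window of 250 bases before to 50 bases after the 5′ end held none of the motifs. Letter matches describe the sequence and do not show that a factor binds there.

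The lin-9 and efl-1 sequences end in TTTCAG, the form of a worm splice acceptor, at the base before the annotated 5′ end. The same 6 bases precede the 5′ ends of lin-52 and lin-53, which makes 4 of 8, beside 12.3% of all genes. This feature was looked up after the sequences were seen. Annotated 5′ ends of trans-spliced worm genes can mark the splice site, with the start of transcription farther upstream, so distances of summits from them are distances from the annotation.

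Among the other lists, of synMuv, E2F family and cell cycle genes, none held more than 1 gene with a reproducible promoter peak. The genes were mep-1, epc-1 and rpa-2, and the count of each list is read beside the 2.06% of all genes. Among 11 other synMuv B and associated genes the count was 1 (9.09%), mep-1, which encodes a zinc finger protein of a Mi-2 complex (IV, 11523769 to 11524218, summit 648 bp upstream, pooled rank 857). Its replicates differed widely, with ranks of 395 and 15780, and the summit lay inside a pair of ncRNA genes. Among 4 synMuv C genes, which encode subunits of a Tip60-type acetyltransferase complex, it was 1 (25%), epc-1 (III, 12608454 to 12608903, 93 bp upstream). Its rank was 200 in the pooled list, 318 in replicate 1 and 169 in replicate 2, and the peak was shared with the divergent gene Y111B2A.12. The 4 synMuv A genes and the other E2F genes, efl-2 and efl-3, had 0. The exact 95% interval was 0.23 to 41.3% for the mep-1 list and 0.631 to 80.6% for the epc-1 list. Lists this short do not allow a count of 1 to be read as raised.

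For the cell cycle itself, 0 of 12 regulators of entry into S phase and 0 of 27 mitosis genes had a reproducible promoter peak, for which the exact 95% intervals reach 26.5% and 12.8%. Beside the 2.06% of all genes, lists this short cannot tell 0 from so small a share, and the intervals are not used as a test. Of 26 DNA replication genes, a class of E2F targets known from several animals, 1 had a reproducible promoter peak. This is 3.85%, with an exact 95% interval of 0.0973 to 19.6%. The gene was rpa-2, a single-strand DNA binding protein gene (I, 4769465 to 4769914, 602 bp upstream, pooled rank 676, replicate ranks 4621 and 329). With weaker peaks the pooled list had promoter summits at 6 of 12 S phase regulators, 12 of 26 replication genes and 8 of 27 mitosis genes, which stand beside the 30.8% of all genes given above.

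**Figure D4:**
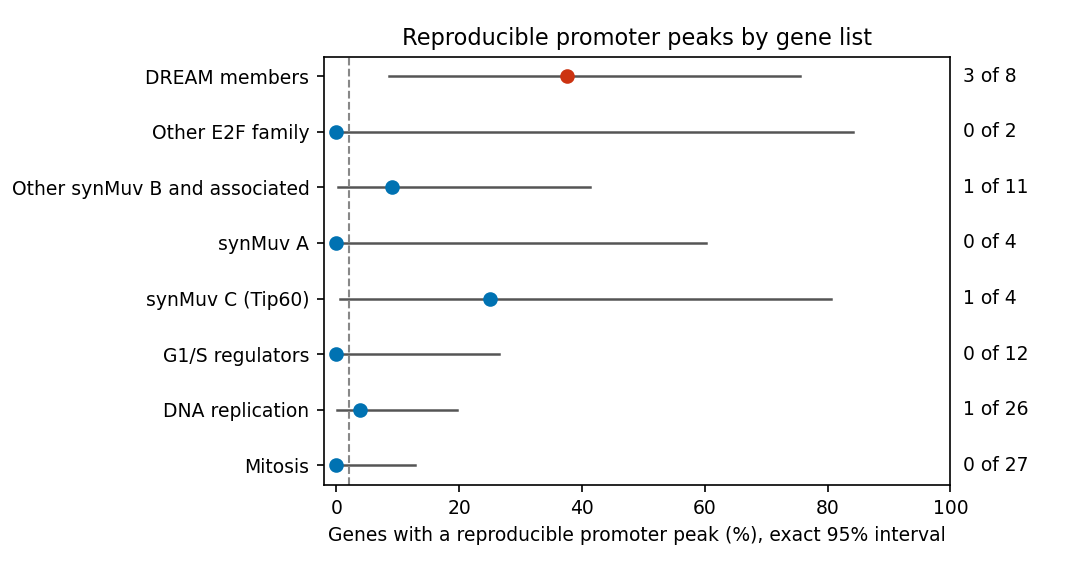
Share of genes with a reproducible promoter peak in the DREAM members (red) and 7 other gene lists (blue), as percent with exact 95% intervals that cover counting error only, and the counts at the right. The dashed line is the 2.06% of all protein-coding genes, and the members stand at 3 of 8.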

How the data were processed

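Peaks of 2 biological replicates of 1 group were analysed, in 4 deposited lists: a relaxed list of 30000 peaks and background for each replicate and for both pooled, and 1053 peaks after the irreproducible discovery rate threshold. Per the deposited descriptions, every list was called against 1 control alignment in assembly ce11. The sources used here do not name the peak caller or its version. The signal of each peak and its −log10 q-value are the authors' deposited values, and the summit comes from the deposited offset. The reproducible list equals the 1053 strongest pooled peaks. No read counts were analysed, so depth is unknown and intervals cover counting error of genes only.

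Peaks were joined to Ensembl release 115 (WBcel235) by summit, with 1-based coordinates, and all 91053 peaks lay within the chromosome lengths of the RefSeq sequence. Nuclear protein-coding genes were the background. Peaks were matched between lists by any overlap, taking the strongest. Mapping of summits to genes was tested on simulated summits. Python 3.11.15, scipy 1.17.1 and matplotlib 3.10.9 were used.

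The members, gene lists and motifs were chosen with earlier results of these data known. Named genes were the members, their neighbours that share a peak or lie within 1000 bp on the same strand, and the strongest reproducible genes of each list. With 1 group no test was run. Alternatives changed the window, the overlap rule, the number of peaks, the replicate and the 5′ end used.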

Additional observations from a re-analysis of the deposited data

How the results depend on the processing

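The count of members with a reproducible promoter summit, 3 of 8, was also 3 with whole-peak overlap (2.36% of all genes) and any transcript start (2.37%). It stayed at 3 with the window of 500 bp upstream to 100 bp downstream (1.34%). The same count came from the window of 2000 bp upstream to 200 bp downstream (3.1%). With 2 times as many pooled peaks it was 4 (3.58% of all genes). It was 0 with the stronger 50% of the list (1.07% of all genes) and 1 with each peak given to 1 gene (1.68%). From 3 kb upstream to the gene end these last settings also gave 4, 0 and 1, beside 10.4%, 3% and 3.44% of all genes. Leaving out a replicate gave 0 to 3 in each case, 0 being replicate 1 alone. Fewer peaks and fewer genes per peak lower such counts by construction, and the cause of the difference between replicates was not tested. The count in both replicates, 0 of 8 (1.32% of all genes), became 3 with 2 times as many strongest peaks (2.17%). The median promoter rank of 2450 became 15972 with the window of 500 bp upstream to 100 bp downstream, in which dpl-1, lin-37 and lin-52 have no summit and are set last with efl-1, and 2174 to 4624 with a replicate left out. Ranks of single members moved by less than the spread between replicates in 16 settings, and by more, or with no spread to compare, in 6. These counts leave out efl-1 and settings without a summit in the window. Those were the narrower window for dpl-1, lin-37 and lin-52, each replicate alone for dpl-1 and replicate 1 alone for lin-37. The spread comes from the same replicate ranks, so it is no independent measure for them. For lin-52, replicate 2 alone gave a different summit, 754 bp upstream. The motif TTTCCCGC was at 2 promoters and 1 summit. No paired analysis was possible because there is 1 group. Depth per library is unknown, so weak peaks cannot be told from background.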
